A study of Mus musculus with 2 samples.

Results

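Histone genes encode the proteins around which DNA is wrapped. The set described here holds the 74 genes whose symbol begins with Hist1h to Hist4h, H2af, H3f3 or H1f and that had at least 20 UMIs (molecules counted once each) over both deposited matrices, out of 32285 genes. Of the 83 genes with such a symbol, 9 were below that minimum, and 6 of those had 0 UMIs in all barcodes. The members just inside the minimum were Hist2h2ab with 34 UMIs, Hist1h2ah with 45, Hist1h4f with 49 and H1foo with 51. Just outside were Hist1h1t with 7, Hist2h2aa2 with 3 and Hist1h2bq with 2. The counts that chose the members say only that they were detected. The members are 8 linker genes and 65 core genes, plus H3f3aos, an antisense RNA at the H3f3a locus that encodes no histone. Of the linker genes 5 (Hist1h1a to Hist1h1e) lie in a histone gene cluster, and H1f0, H1fx and H1foo stand alone. Of the core genes 57 are clustered (16 of H2A, 16 of H2B, 12 of H3 and 13 of H4) and 8 are replacement genes outside the clusters.

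The cells came from mouse hearts, from the infarct and border zones, 3 days after myocardial infarction, and were labelled as mononuclear macrophages, sorted for CD45, CD11b and CD64. One group was WT and the other was labelled CD40 KO, and both groups had had the infarction. There was no uninjured heart among the samples. Each group had 1 droplet library made with the 3′ v3 chemistry. The CD40 allele, its promoter or Cre if any, the ages, and the number of mice pooled in a library were not stated in any source used here. With 1 library per group no test between groups was possible: intervals are exact 95% intervals that cover counting error only, and a difference between libraries is one between these 2 libraries.

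As background, a nucleosome holds pairs of the core histones H2A, H2B, H3 and H4, and a linker histone of the H1 family binds where DNA enters and leaves it. Clustered genes are known to be transcribed mainly while DNA is being copied, and most of their messages end at a conserved stem-loop in place of a poly(A) tail, which the stem-loop binding protein SLBP holds during processing and translation. Most replacement genes are transcribed through the whole cell cycle, give polyadenylated messages, and supply variants such as H3.3 and H2A.Z. H2afx, the gene of H2A.X, is classed with them here, though its annotated transcript also holds the stem-loop. Some clustered genes are also known to give polyadenylated messages, from sites downstream of the stem-loop, in cells that have stopped dividing. The 3′ droplet assay primes on poly(A), so a count for a clustered gene covers the molecules that this priming caught and is not the whole message.

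The stem-loop was read from the annotated transcripts of 45 members, 44 of the 62 clustered genes and H2afx. The search asked for 6 paired bases starting at GG around a loop of 4 bases that reads TNTN. It covered whole transcripts, not only their 3′ ends, and found a match in 191 of 32158 genes (0.594%). The sites below are those of members that the results turn on, with stems that start GGCTC or GGCCC. Capitals mark the 16 bases of the stem-loop.
Hist1h1c: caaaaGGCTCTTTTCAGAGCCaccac
Hist1h1e: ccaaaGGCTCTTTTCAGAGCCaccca
Hist1h2ae: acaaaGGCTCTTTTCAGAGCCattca
Hist1h2ap: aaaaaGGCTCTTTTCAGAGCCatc
Hist1h3c: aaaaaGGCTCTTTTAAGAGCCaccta
Hist1h4d: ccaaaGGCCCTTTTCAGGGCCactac
Hist1h4i: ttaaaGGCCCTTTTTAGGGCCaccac
H2afx: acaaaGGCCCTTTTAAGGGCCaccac

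One sequence, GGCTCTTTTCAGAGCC, was shared by 25 members of the H1, H2A, H2B and H3 families. A stem that starts GGCTC was found in all 3 H1 genes, all 10 H2B genes, all 9 H3 genes and 10 of 11 H2A genes with a loop. The H4 genes differed: 10 of 12 had a stem that starts GGCCC and the other 2 one that starts GGTCC. The remaining H2A gene was H2afx, which encodes H2A.X, the variant phosphorylated at DNA breaks, and its stem was of the GGCCC kind. The annotated model of H2afx runs 822 bases beyond its loop, that of Hist1h1c 840 bases, that of Hist1h4d 770 bases and that of Hist1h2ae 151 bases. In contrast, the models of Hist1h3c and Hist1h2ap end 74 and 3 bases past it. Of the clustered genes 58 of 62 have a single exon, and 51 of the members lie on chromosome 13 (positions are from GENCODE vM21 on GRCm38).

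The WT library held 10624 barcodes and the CD40 KO-labelled library 8146, with 139343516 and 90057108 UMIs. Barcodes were called macrophage-gated where at least 5 of 11 macrophage markers were present, which gave 5845 and 2551 barcodes at median depths of 12627 and 15342 UMIs. All 11 markers were present in both gates, at a summed 7825 and 5738 CPM (UMIs of a gene in every 1000000 UMIs). The 9 neutrophil markers, of which macrophages also express some, summed to 6662 and 5891 CPM in the same gates, against 73799 and 77356 CPM in the neutrophil gates. Results are therefore also given without macrophage-gated barcodes that held at least 6 of them. One cluster drew over 95% of its barcodes from the CD40 KO-labelled library (4116 macrophage-positive barcodes against 53 in WT). By ratio to the macrophage gate it was led by Mgp, Dcn and Bgn, genes of matrix-producing cells, at only 106, 52.2 and 48.7 CPM. Its CD40 KO-labelled barcodes were shallow, with medians of 3314 UMIs and 5.16% mitochondrial UMIs, and Csf1r stood at 245 CPM. In the macrophage gate of that library these values were 15342 UMIs, 2.53% and 261 CPM. What cells these barcodes hold was not tested, and the cluster was kept apart from every gate. Cd40 itself stood at 17.3 and 15.9 CPM in the macrophage gates. If the allele leaves the 3′ end of the gene in place, such tags cannot show the knockout, so the labels were not checked by them. The libraries shared 23 barcode sequences, 2 of them macrophage-gated in both.

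Replacement genes made up nearly all histone UMIs of the macrophage gate. Histone UMIs were 0.704% of all UMIs in WT and 0.791% in the CD40 KO-labelled library. Replacement core genes held 96.3% and 92.3% of them, clustered core genes 1.95% and 4.12%, and linker genes 1.73% and 3.61%. In CPM the replacement core genes stood at 6783 and 7294, the clustered core genes at 138 and 326, and the linker genes at 121 and 286. A UMI is counted at the 3′ end once per molecule, so CPM is not divided by gene length, and levels of different genes also carry how much of each message has a poly(A) tail.

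Among the replacement core genes, the H3.3 genes took the most UMIs. H3f3b (chr11:116021912-116027962, minus strand, 6 exons) had 3775 CPM in WT against 4470 in the CD40 KO-labelled library. H3f3a (chr1:180800832-180813943, minus strand), which encodes the same protein, stood at 1713 and 1448 CPM. The pair therefore moved in opposite directions between the libraries, by log2 ratios of 0.24 (0.24 to 0.25) and −0.24 (−0.25 to −0.23). The H3f3b share of replacement core UMIs was 55.6% and 61.3%. The antisense RNA H3f3aos had 32 and 21 UMIs, 0.343 and 0.409 CPM. Whether the counting used strand is not stated in any source used here, so its reads cannot be told apart from those of H3f3a where they overlap.

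H2afz and H2afv encode the H2A.Z proteins, which mark promoters, and H2afy encodes macroH2A1, a variant of inactive chromatin. H2afz stood at 867 and 898 CPM, H2afv at 90.0 and 78.1 CPM and H2afy at 207 and 199 CPM. H2afx stood at 27.2 and 30.4 CPM. All 4 lay within 1.5-fold between the libraries. H2afj, a replication-independent H2A gene next to Hist4h4 on chromosome 6, did not: it had 104 CPM in WT against 169 in the CD40 KO-labelled library, a log2 ratio of 0.71 (0.67 to 0.75).

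Among the linker genes, Hist1h1c (H1.2, chr13:23738808-23740367, plus strand, 1 exon) held 51.7% (50.7 to 52.6) of linker UMIs in WT and 60.5% (59.7 to 61.3) in the CD40 KO-labelled library. It stood at 62.8 and 173 CPM. H1f0 (H1.0, on chromosome 15), the linker gene known to accumulate in cells that leave the cycle, stood at 28.6 and 44.2 CPM. Hist1h1e (H1.4) stood at 13.5 and 34.2 CPM, Hist1h1b (H1.5) at 10.4 and 19.9 CPM and Hist1h1d (H1.3) at 3.51 and 8.84 CPM. All 60-base stretches in the last 400 bases of the Hist1h1e model also occur in an overlapping model of Hist1h2be on the same strand. How the counting split these 2 genes is therefore uncertain.

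Among the clustered core genes a single H2B gene led. Hist1h2bc (chr13:23684199-23692908, plus strand, 2 exons) had 52.9 CPM in WT against 116 in the CD40 KO-labelled library, which was 38.4% and 35.7% of clustered core UMIs. Hist3h2a, an H2A gene on chromosome 11 that overlaps Trim17 on the same strand, stood at 13.3 and 15.7 CPM, and the H4 genes Hist1h4i and Hist1h4d at 13.02 and 20.2 CPM and at 6.34 and 17.2 CPM. Of the 57 clustered core genes, 33 shared over 50% of the 60-base stretches in their last 400 bases with another gene. The single values of these genes are uncertain, while their sum is less so. Hist1h2ap, Hist1h3e, Hist1h2ab and Hist1h2bj are the named genes among them.

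**Figure D1:**
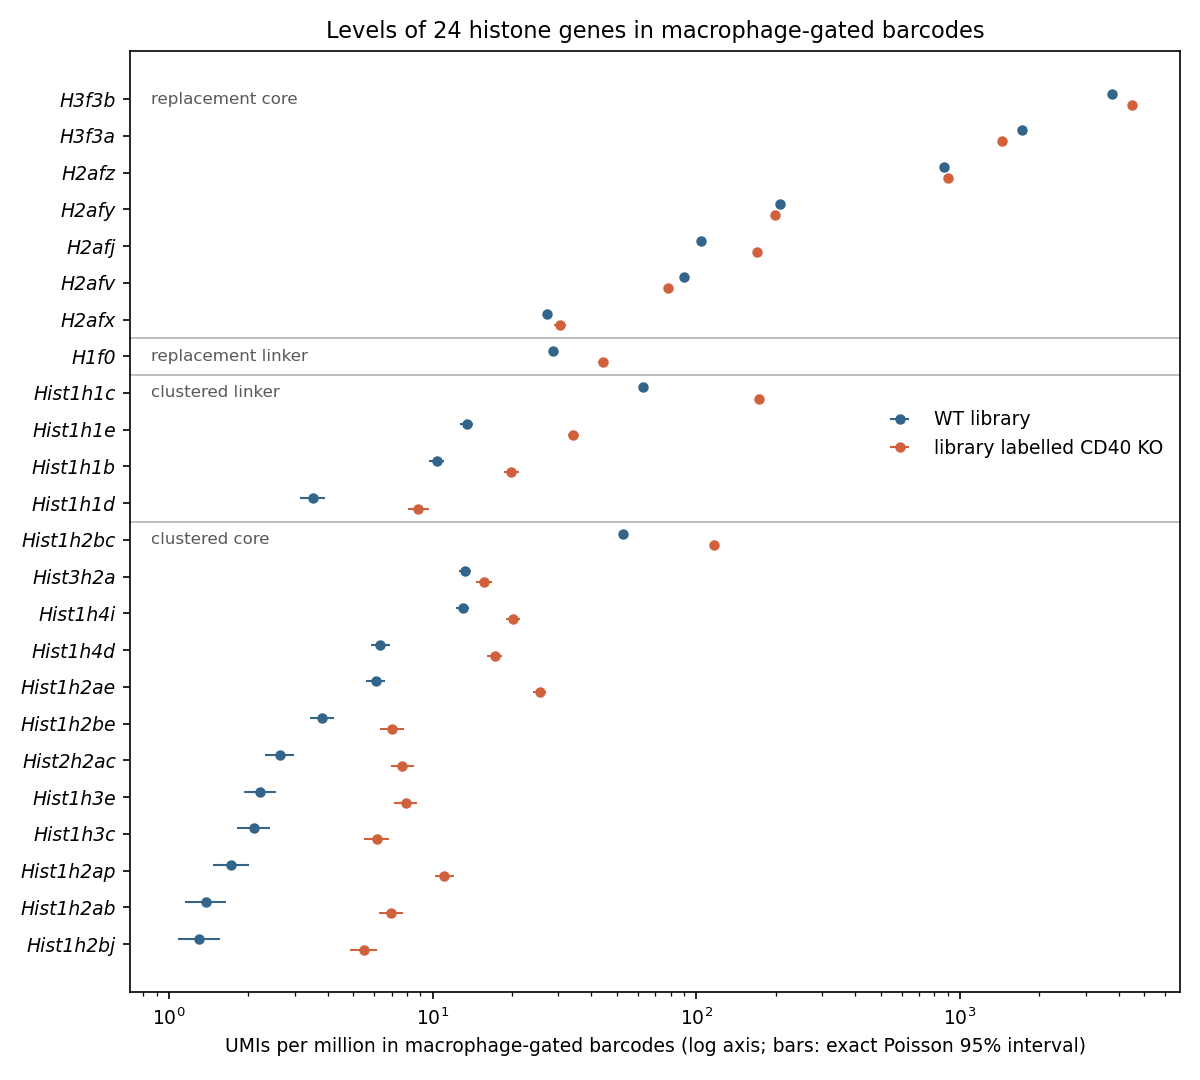
CPM of the named histone genes in macrophage-gated barcodes on a log axis, 1 point per library with its exact 95% Poisson interval. Replacement core genes such as H3f3b (3775 and 4470 CPM) lie far above the clustered genes, and every linker and clustered core gene shown is higher in the CD40 KO-labelled library. Genes are shown that reached 10 CPM in macrophage-gated or cycling barcodes of either library, some of them only in the CD40 KO-labelled one.

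The comparison of the 2 libraries asked how histone messages differed between WT macrophages and those of the CD40 KO-labelled library. Linker and clustered core genes were higher in the CD40 KO-labelled library, by log2 ratios of 1.23 (1.20 to 1.27) and 1.24 (1.21 to 1.28), while the replacement core sum differed by 0.10 (0.10 to 0.11). All 8 linker genes and all 57 clustered core genes had a higher CPM in that library. The share of all genes with a higher CPM was not computed, here or for the later counts by sign. Such counts are a description only. Of the 8 replacement core genes 4 were higher and 4 lower, and without H3f3b their sum was lower, at −0.09 (−0.10 to −0.08). Of the 16 members with a mean of at least 10 CPM, 9 were at least 1.5-fold higher in the CD40 KO-labelled library, where 8.31% of the 7604 genes at that level were. None of the 16 was at least 1.5-fold lower, where 3.52% of those genes were. Hist1h2ae and Hist1h4d, among the 9, were below 10 CPM in WT. They reached the floor only through the CD40 KO-labelled library, so that they were higher was fixed by this floor. With 1 library per group no p-value was computed for these counts. Of the 66 measured single-exon protein-coding genes that encode no histone, 5 were higher and 9 lower. The median log2 ratio was 0.63 over the 16 members and 0.09 over all genes at that level.

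The 9 genes were all 4 measured linker genes, 4 of 5 measured clustered core genes and H2afj. Hist1h1c had a log2 ratio of 1.46 (1.41 to 1.51), Hist1h1e of 1.34 (1.24 to 1.45) and Hist1h1b of 0.94 (0.81 to 1.07). H1f0, which is not clustered, had 0.63 (0.55 to 0.71). The clustered core genes were Hist1h2bc at 1.14 (1.09 to 1.19), Hist1h4i at 0.63 (0.51 to 0.76), Hist1h4d at 1.44 (1.29 to 1.59) and Hist1h2ae, an H2A gene at 6.11 and 25.5 CPM, at 2.06 (1.92 to 2.20). Hist3h2a was the measured clustered core gene below 1.5-fold, at 0.24 (0.11 to 0.37). The other named members had a mean below 10 CPM. The H2A gene Hist1h2ap had 161 and 569 UMIs (1.73 and 11.1 CPM) and Hist1h2ab 129 and 357 UMIs (1.38 and 6.95 CPM). Their log2 ratios were 2.68 (2.43 to 2.94) and 2.33 (2.04 to 2.63). Hist1h2bj, an H2B gene at 1.31 and 5.49 CPM, had a log2 ratio of 2.07 (1.76 to 2.39). Hist1h3e, an H3 gene at 2.22 and 7.91 CPM, had 1.83 (1.59 to 2.08). The linker gene Hist1h1d had 1.33 (1.12 to 1.54), the H3 gene Hist1h3c 1.55 (1.28 to 1.81), the H2A gene Hist2h2ac 1.55 (1.31 to 1.78) and the H2B gene Hist1h2be 0.89 (0.67 to 1.10). Hist1h2ap, Hist1h2ab, Hist1h2bj and Hist1h3e reached the 10 CPM needed to be named only through the CD40 KO-labelled library. Their ratios therefore carry that choice, and nothing is read from their size.

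Part of the cells divided, and the share of them differed: barcodes passing the G2M gate, defined in the next comparison, were 5.92% of the macrophage gate in WT and 10.8% in the CD40 KO-labelled library. They held 29.2% and 45.6% of its clustered core UMIs. Between the libraries 5 of 9 measured S phase markers and 8 of 11 measured G2M markers were at least 1.5-fold higher in the macrophage gate of the CD40 KO-labelled library, and none was lower. The same comparison was therefore made among barcodes with at most 1 S marker and 1 G2M marker, 3807 in WT and 1296 in the other library. There, the clustered core genes had 104 CPM in WT against 239 in the CD40 KO-labelled library (log2 ratio 1.20, 1.14 to 1.27), and the linker genes at 108 and 309 CPM (1.51, 1.46 to 1.57). By sign alone, all 8 linker genes and 55 of 57 clustered core genes were higher in the CD40 KO-labelled library, with no share over all genes computed. Of 13 members at 10 CPM 6 were at least 1.5-fold higher (8.85% of all 7410 genes at that level) and none was at least 1.5-fold lower (6.17%). Hist1h1e was below 10 CPM in WT there, so its direction was fixed by the floor. Hist1h1c stood at 64.3 and 215 CPM there, a log2 ratio of 1.74 (1.67 to 1.81), H1f0 at 28.8 and 54.0 CPM (0.91, 0.78 to 1.03), and Hist1h2bc at 44.9 and 112 CPM (1.32, 1.22 to 1.41). Of the 8 replacement core genes 6 were lower in the CD40 KO-labelled library, 5 of them with an interval below 0: H2afv at −0.48 (−0.60 to −0.36), H2afx at −0.32 (−0.55 to −0.10), H3f3a at −0.18, H2afy at −0.08 and H2afz at −0.05.

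The same direction was seen within the G2M gate, where clustered core genes had 367 CPM in WT against 752 in the CD40 KO-labelled library (1.03, 0.98 to 1.09). Linker genes stood at 259 and 371 CPM there (0.52, 0.45 to 0.59). With every barcode thinned to 3000 UMIs, at least 1 clustered core UMI was found in 23.6% (22.3 to 25.0) of 3685 non-cycling barcodes in WT and 44.0% (41.2 to 46.8) of 1227 in the CD40 KO-labelled library, with 122 and 69 shallower barcodes left out. Unthinned shares were 54.8% and 77.2%. For Hist1h1c alone the thinned shares were 15.3% and 37.0%. Hist1h1b, a gene of dividing cells, was seen in 0.543% and 1.22%.

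The gap was present in all 4 depth ranges. In barcodes of 1000 to 8000, 8000 to 16000, 16000 to 32000 and over 32000 UMIs the clustered core log2 ratio was 1.93, 1.34, 0.96 and 1.32, and the linker log2 ratio 1.70, 1.58, 1.03 and 1.13. Some RNA measures moved with it. Malat1, a nuclear RNA, had 6455 CPM in WT against 8097 in the CD40 KO-labelled library. Barcodes with at least 1% of UMIs from Gm26917, Lars2 and Cmss1 numbered 23 and 45, and held clustered core genes at 1224 and 1945 CPM. They contributed 0.833% and 2.73% of the clustered core UMIs of the gate. The part of Malat1 in the difference was not tested. Without barcodes that held neutrophil transcripts the log2 ratios were 1.30 for linker and 1.36 for clustered core genes. With the one-library cluster kept in the gate the clustered core ratio was 1.32.

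**Figure D2:**
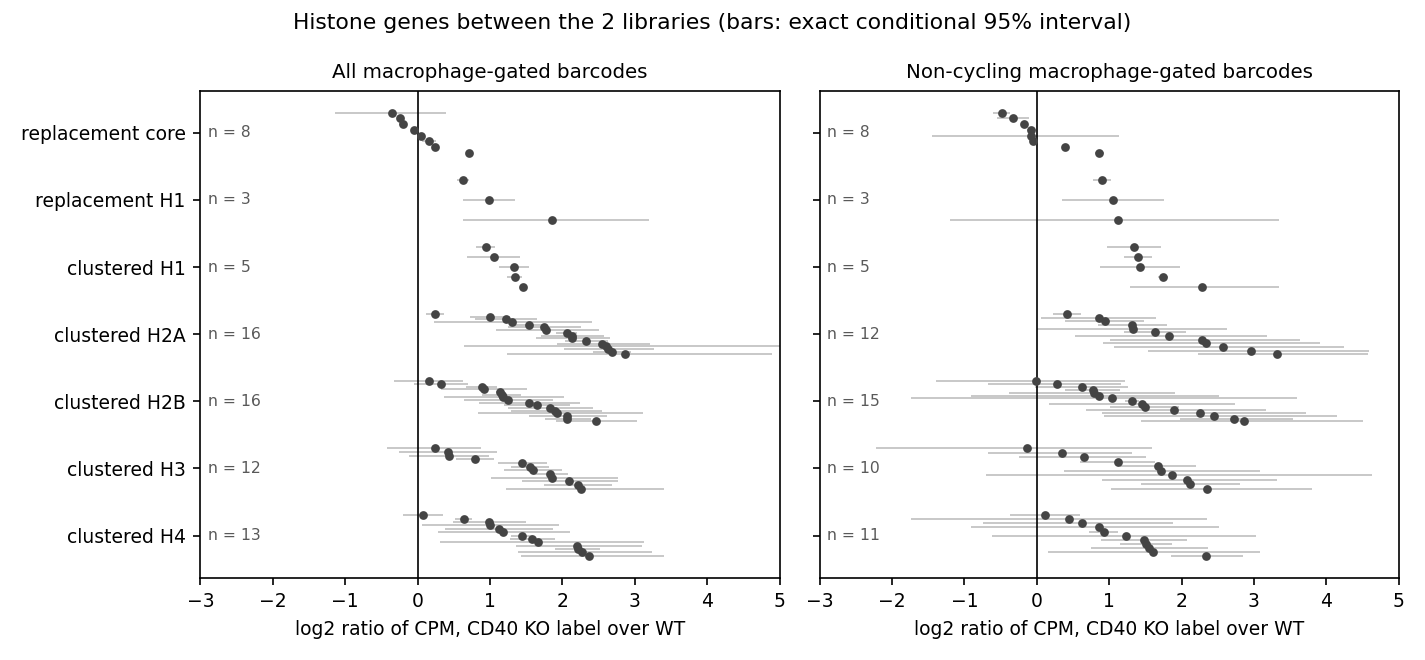
Log2 ratio of CPM, library labelled CD40 KO over WT, for every member with at least 3 UMIs in both libraries, in all macrophage-gated barcodes and in non-cycling ones, with bars for the exact 95% interval. The clustered core genes lie above 0 in the macrophage gate (57 of 57) and the replacement core genes on both sides (4 of 8 above).

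The comparison within each library asked how histone messages differed between cycling macrophages and others. Lists of 14 genes each were used, one of S phase genes (such as Mcm5) and one of G2 and M phase genes (such as Mki67 and Top2a). Barcodes with at least 6 G2M markers formed the G2M gate (346 in WT, 276 in the CD40 KO-labelled library). Those with at least 6 S markers and fewer than 6 G2M markers formed the S gate (180 and 119), and both together are called cycling. The cycling barcodes were deeper, with medians of 27302 and 33362 UMIs against 10284 and 11513 in non-cycling ones. No histone gene was used in the gates.

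Clustered core genes were higher in cycling barcodes of both libraries, at 270 against 104 CPM in WT (log2 ratio 1.38, 1.32 to 1.44) and 572 against 239 CPM in the CD40 KO-labelled library (1.26, 1.21 to 1.32). Linker genes were higher in WT, at 196 against 108 CPM (0.86, 0.79 to 0.92). In the CD40 KO-labelled library they were not, at 310 against 309 CPM (0.01, −0.05 to 0.07). Replacement core genes differed by 0.24 (0.23 to 0.25) and −0.06 (−0.07 to −0.05). Of the members at 10 CPM, 9 of 16 were at least 1.5-fold higher in WT (6.89% of all genes at that level) and 12 of 21 in the CD40 KO-labelled library (14.8%). At least 1.5-fold lower were 0 of 16 (2.46% of all genes) and 3 of 21 (5.41%). The higher members common to both were 7: H2afv, H2afx, H2afz, Hist1h1b, Hist1h1e, Hist1h2ae and Hist1h4d. The 3 lower ones were H2afj, Hist1h1c and Hist3h2a. Hist1h1b, Hist1h2ae and Hist1h4d in both libraries, Hist1h1e in WT, and Hist1h2ab, Hist1h2ap, Hist1h3c, Hist1h3e and Hist2h2ac in the CD40 KO-labelled library were below 10 CPM in non-cycling barcodes. They reached the mean of 10 CPM only through the cycling group, so that they were higher was fixed by this floor, and nothing is read from the counts.

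The 2 gates differed, but they do not separate the phases. Of the 346 and 276 G2M-gated barcodes, 200 in WT and 184 in the CD40 KO-labelled library also had at least 6 S markers. Mcm5 stood at 72.6 and 87.3 CPM in them. How histone messages change between S phase and G2 or M phase was therefore not tested. In the S gate the clustered core genes stood below non-cycling barcodes, at 90.6 against 104 CPM in WT (−0.19, −0.33 to −0.06) and 142 against 239 CPM in the CD40 KO-labelled library (−0.75, −0.87 to −0.62). Gene by gene the clustered core class was split in WT, with 27 genes higher and 28 lower, while 15 were higher and 42 lower in the other library. The sum of linker genes was lower, by −0.41 (−0.56 to −0.27) and −0.90 (−1.02 to −0.79), with 4 of 8 genes lower in each library. The lower linker genes were Hist1h1c, H1f0, Hist1h1e and Hist1h1d, while Hist1h1b was higher in WT, at 4.34 against 1.29 CPM (1.75, 1.002 to 2.46). Only H2afz and H2afv were at least 1.5-fold higher, which was 2 of 12 measured members in WT (4.55% of all genes at that level) and 2 of 13 in the other library (8.62%). H2afz stood at 1023 and 962 CPM in the S gate against 647 and 627 CPM in non-cycling barcodes. Lower by 1.5-fold were 2 of 12 in WT (3.25% of all genes), Hist1h1c and Hist3h2a, and 7 of 13 in the CD40 KO-labelled library (3.11%). The 7 also included H3f3b, H1f0, Hist1h1e, Hist1h2bc and Hist1h4i. Hist3h2a, with 45 and 32 UMIs in the S gates, was below 10 CPM there in both libraries. It reached the floor only through the non-cycling barcodes, so that it was lower was fixed by this floor. The S gate held S phase genes as its definition requires, for instance Mcm5 at 64.7 and 77.4 CPM against 2.04 and 2.49 CPM.

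In the G2M gate the clustered genes stood far higher. Clustered core genes were at 367 against 104 CPM in WT (1.83, 1.76 to 1.89) and 752 against 239 CPM in the CD40 KO-labelled library (1.65, 1.60 to 1.71). By family, clustered H3 genes had log2 ratios of 3.13 (2.92 to 3.34) and 2.66 (2.46 to 2.86), H2A genes 2.30 and 2.77, H4 genes 1.84 and 1.49, and H2B genes 1.27 and 0.81. Clustered linker genes had 1.51 (1.43 to 1.58) and 0.37 (0.31 to 0.44). Of the measured members 9 of 16 were at least 1.5-fold higher in WT (8.88% of all genes) and 16 of 24 in the CD40 KO-labelled library (17.4%), with 8 genes in common. Lower by 1.5-fold were 0 of 16 (3.02%) and 3 of 24 (7.32%), the same 3 genes as among all cycling barcodes. The floor fixed the direction here too, for the members listed above as below 10 CPM in non-cycling barcodes. In the CD40 KO-labelled library this also held for Hist1h1d, Hist1h2be and Hist1h2bj, so these counts are a description only.

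The linker genes did not move as one in the G2M gate. Hist1h1b (chr13:21779883-21780625, minus strand) had 58 and 57 UMIs in the non-cycling barcodes and 825 and 853 in the far fewer G2M-gated ones. Its level was 1.29 against 80.9 CPM in WT and 3.46 against 84.1 CPM in the CD40 KO-labelled library, log2 ratios of 5.97 (5.59 to 6.38) and 4.60 (4.22 to 5.02). It held 31.3% and 22.7% of linker UMIs there. Hist1h1e stood at 45.3 and 82.8 CPM in the gate against 9.59 and 25.3 CPM in non-cycling barcodes. Hist1h1d stood at 10.9 and 16.1 CPM against 2.77 and 7.04 CPM. Hist1h1c went the other way in 1 library: 77.5 against 64.3 CPM in WT (0.27, 0.15 to 0.38), and 136 against 215 CPM in the CD40 KO-labelled library (−0.66, −0.75 to −0.57). H1f0 stood at 33.6 against 28.8 CPM in WT (0.22, 0.05 to 0.39), which turned to −0.11 after thinning to 3000 UMIs, and at 38.6 against 54.0 CPM in the other library. The share of linker UMIs from Hist1h1c was 59.5% and 69.7% in non-cycling barcodes and 29.96% and 36.8% in the G2M gate.

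Core genes also separated. Hist1h3c stood at 16.2 and 27.1 CPM in the G2M gate against 0.178 and 0.910 CPM in non-cycling barcodes, on 8 and 15 UMIs. Its log2 ratios were 6.51 and 4.90 (4.15 to 5.75). Hist1h2ap stood at 12.5 and 48.9 CPM against 0.1998 and 2.001 CPM. Hist1h2ab stood at 10.49 and 31.6 CPM against 0.1998 and 0.970 CPM. These 3 genes were close to absent in non-cycling barcodes at this depth. Hist1h2ap was found in 113 and 220 macrophage-gated barcodes, of which 79 and 151 were G2M-gated and 9 and 31 non-cycling. Hist1h2ae (chr13:23570517-23571220, minus strand) stood at 38.2 and 106 CPM against 1.98 and 6.13 CPM, log2 ratios of 4.27 (3.94 to 4.62) and 4.12 (3.82 to 4.43). Hist1h4d stood at 33.7 and 59.0 CPM against 2.80 and 7.95 CPM, and Hist1h4i at 26.3 and 32.1 CPM against 11.3 and 21.3 CPM. Hist1h2bc, which leads the class in non-cycling barcodes, stood at 89.7 and 144 CPM against 44.9 and 112 CPM. Its share of clustered core UMIs was 43.3% and 46.8% in non-cycling barcodes and 24.4% and 19.2% in the G2M gate. Hist1h3e stood at 8.14 and 23.8 CPM in the gate, Hist2h2ac at 10.6 and 26.4 CPM, Hist1h2bj at 6.08 and 17.4 CPM and Hist1h2be at 6.08 and 16.5 CPM. Hist3h2a had log2 ratios of −0.39 (−0.69 to −0.10) and −0.66 (−0.98 to −0.36).

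Replacement genes that serve DNA repair and promoter marking were higher in the G2M gate, while log2 ratios of the H3.3 genes lay between −0.31 and 0.10. H2afx stood at 112 and 101 CPM against 16.5 and 13.2 CPM, log2 ratios of 2.77 (2.64 to 2.91) and 2.93 (2.72 to 3.15). H2afv stood at 261 and 181 CPM against 60.5 and 43.3 CPM (2.11 and 2.06). H2afz stood at 2160 and 1805 CPM against 647 and 627 CPM (1.74 and 1.53), and made up 24.5% and 22.7% of replacement core UMIs there against 9.67% and 8.11%. H2afy had log2 ratios of 0.46 and 0.39. H3f3a had −0.01 (−0.04 to 0.01) and −0.17 (−0.20 to −0.14). H3f3b had 0.10 (0.08 to 0.11) and −0.31 (−0.33 to −0.30), and H2afj −0.27 (−0.38 to −0.17) and −0.72 (−0.82 to −0.63).

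The level of clustered core genes was higher at 6 or more G2M markers, the minimum of the gate, than below it. With 5 markers, just below the gate, it was 137 CPM (42 barcodes) in WT and 182 CPM (38 barcodes) in the CD40 KO-labelled library. With 6 markers it was 264 CPM (29 barcodes) and 280 CPM (30 barcodes), and with 12 or more markers it was 460 CPM (140 barcodes) and 889 CPM (126 barcodes). Below the gate, from 0 to 5 markers, the sum stayed between 101 and 152 CPM in WT and between 182 and 237 CPM in the other library. Splitting the G2M gate by S markers gave 385 and 721 CPM for barcodes with many and 335 and 837 CPM for those with few. Thinned to 3000 UMIs, 54.5% and 76.1% of G2M-gated barcodes had a clustered core UMI, against 25.6% and 31.1% of S-gated ones.

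**Figure D3:**
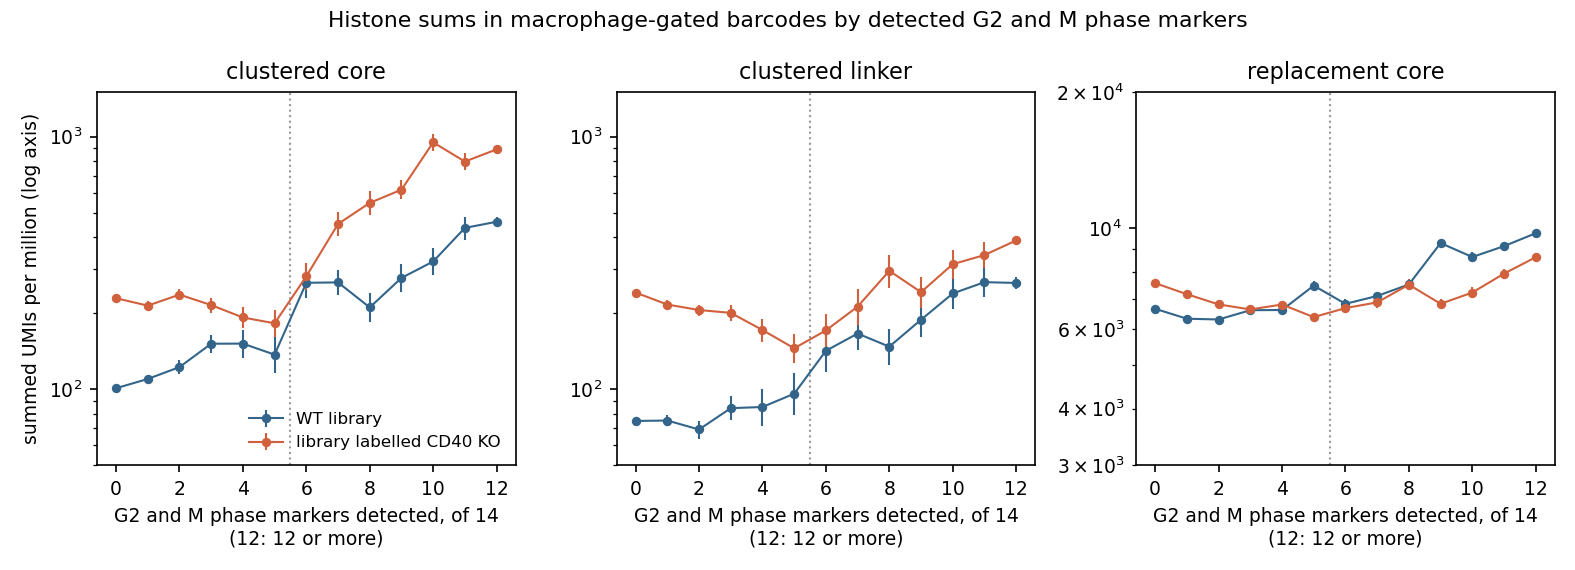
CPM of histone classes on a log axis against the number of G2 and M phase markers in macrophage-gated barcodes, by library, with exact 95% Poisson intervals. Clustered core genes go from 101 CPM at 0 markers to 460 CPM at 12 or more in WT and from 229 to 889 CPM in the CD40 KO-labelled library.

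Clustered genes were also summed by where the annotated message ends. The 62 clustered genes were put in 3 classes: 22 models that end within 100 bases of the loop, 22 that run further, and 18 with no loop in the model. Genes whose models end at the loop had low levels, 16.8 CPM in WT against 62.5 CPM in the CD40 KO-labelled library over all 22. Those that run further had 141 and 343 CPM, and those with no loop 70.9 and 159 CPM. The log2 ratio between the libraries was 1.90 (1.81 to 1.99) in the first class, 1.28 (1.25 to 1.31) in the second and 1.17 (1.12 to 1.21) in the third. In the G2M gate against non-cycling barcodes the first class had 3.56 (3.38 to 3.75) and 3.23 (3.07 to 3.39), the second 1.24 and 0.68, and the third 2.08 and 1.29. The second class rests on Hist1h1c: without it the values were 1.85 and 1.70. The third rests on Hist1h2bc, which held 2023 of its 2233 non-cycling UMIs in WT and 1842 of 2063 in the CD40 KO-labelled library. In the G2M gate Hist1h2bc held 915 of 2130 and 1464 of 3098. Sums without Hist1h2bc were not computed, so no order of the classes is read from these values. The hexamer AATAAA or ATTAAA stood in the last 60 bases of 2, 11 and 2 models of the 3 classes. The classes also differ in shared sequence and in families, and the part of these in the differences was not tested.

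**Figure D4:**
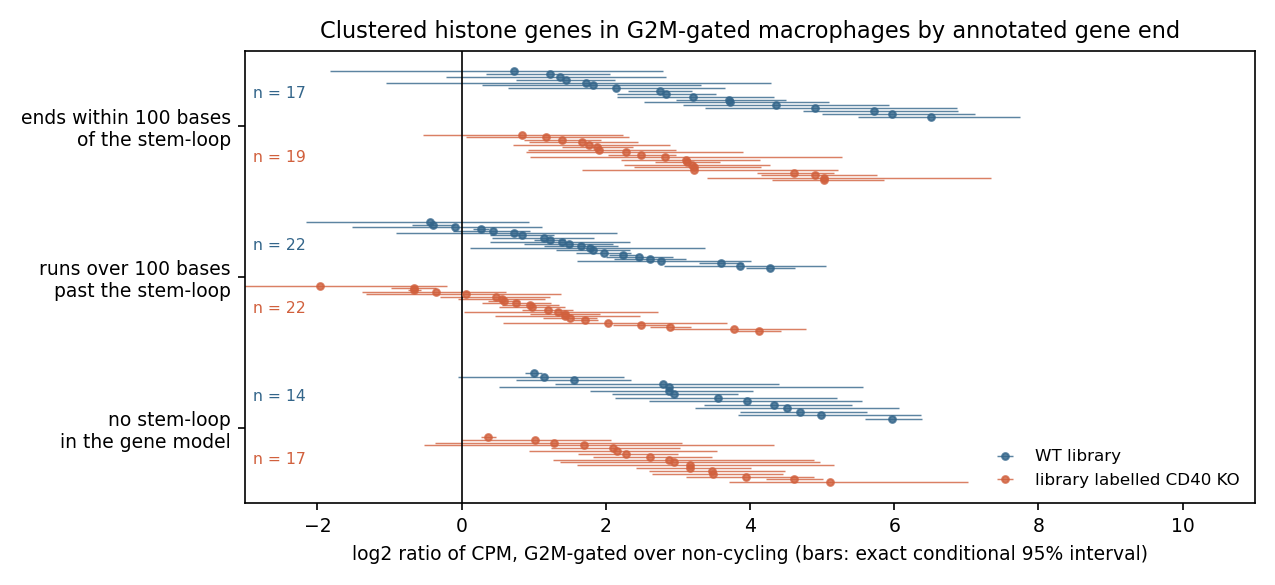
Log2 ratio of CPM, G2M-gated over non-cycling macrophage-gated barcodes, for clustered genes with at least 3 UMIs in both gates, by where the annotated model ends relative to the stem-loop, in each library. All 17 drawn genes that end within 100 bases of the loop lie above 0 in WT, as do all 19 in the CD40 KO-labelled library.

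Sums by position along chromosome 13 differed as well. The 17 genes at chr13:21715763-21837530, which include Hist1h1b and Hist1h2ap, stood at 120 and 194 CPM in the G2M gate against 4.08 and 13.3 CPM, log2 ratios of 4.88 (4.65 to 5.11) and 3.86 (3.66 to 4.07). The 5 genes at chr13:22035164-22043676, with Hist1h4i, had 1.65 and 1.28. The 28 genes at chr13:23531050-23764406, which include Hist1h1c and Hist1h2ae, had 1.47 and 0.85. Single genes weighed on these sums. Hist1h1b held 825 of 1225 UMIs of the first group in the G2M gate of WT and 853 of 1970 in the CD40 KO-labelled library. Of the 6388 non-cycling UMIs of the 28 genes in WT, Hist1h1c held 2898 and Hist1h2bc 2023. In the CD40 KO-labelled library they held 3546 and 1842 of 6901. Sums without these genes were not computed. The 9 genes on chromosome 3 had 1.89 and 2.34, and the pair on chromosome 11 had −0.09 and −0.50. Between the libraries, the log2 ratios of the 3 groups on chromosome 13 were 1.49 (1.40 to 1.58), 0.95 (0.85 to 1.06) and 1.39 (1.36 to 1.42) in that order, and that of the group on chromosome 3 was 1.20 (1.05 to 1.35). The pair on chromosome 11 had 0.25 and Hist4h4 on chromosome 6, at 3.16 and 3.33 CPM, had 0.08 (−0.21 to 0.35).

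The promoters, from 250 bases before the start to 50 after it, were found for 67 of 74 members in RefSeq (GRCm38.p6). Those of 3 genes that move together in the G2M gate, Hist1h1b, Hist1h2ae and Hist1h4d, and of Hist1h1c, which does not follow them, are given as they read on the gene's strand. Capitals mark the motifs ATTTGCAT (the octamer), AAACACA (known from H1 promoters) and TATAAA, searched on both strands. No 2 of these motifs share their letters.
Hist1h1b, chr13:21780576-21780875, minus strand: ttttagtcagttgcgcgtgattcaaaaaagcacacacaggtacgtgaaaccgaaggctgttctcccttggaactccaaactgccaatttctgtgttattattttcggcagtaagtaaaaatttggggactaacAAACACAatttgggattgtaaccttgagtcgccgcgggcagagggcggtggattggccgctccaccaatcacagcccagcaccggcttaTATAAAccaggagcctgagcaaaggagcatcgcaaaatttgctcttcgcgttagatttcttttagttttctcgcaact
Hist1h1c, chr13:23738557-23738856, plus strand: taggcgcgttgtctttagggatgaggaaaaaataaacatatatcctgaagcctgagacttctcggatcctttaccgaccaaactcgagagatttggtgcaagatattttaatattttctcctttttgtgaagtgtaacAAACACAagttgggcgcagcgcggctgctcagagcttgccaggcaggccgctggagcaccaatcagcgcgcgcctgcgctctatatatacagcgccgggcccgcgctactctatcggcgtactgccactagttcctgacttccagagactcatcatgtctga
Hist1h2ae, chr13:23571171-23571470, minus strand: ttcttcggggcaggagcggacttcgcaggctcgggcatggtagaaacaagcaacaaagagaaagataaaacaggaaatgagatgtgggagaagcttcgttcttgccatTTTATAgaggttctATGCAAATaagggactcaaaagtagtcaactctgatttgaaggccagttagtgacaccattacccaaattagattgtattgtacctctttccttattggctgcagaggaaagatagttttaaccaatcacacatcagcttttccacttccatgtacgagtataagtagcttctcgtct
Hist1h4d, chr13:23581318-23581617, plus strand: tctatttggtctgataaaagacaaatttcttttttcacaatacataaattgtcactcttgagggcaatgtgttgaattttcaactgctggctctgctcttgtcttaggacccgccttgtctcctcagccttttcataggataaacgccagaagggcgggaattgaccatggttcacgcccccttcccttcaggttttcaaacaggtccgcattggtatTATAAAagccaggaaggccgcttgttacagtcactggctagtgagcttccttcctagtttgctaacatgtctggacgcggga

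AAACACA was in 4 of 5 clustered H1 promoters, those of Hist1h1b and Hist1h1c included, and in 7.14% of 27025 promoters of the same length. The octamer was in 6 of 16 clustered H2A and 5 of 14 clustered H2B promoters, and in 1.75% of all. TATAAA was in 33 of 57 clustered promoters, in 1 of 10 replacement promoters and in 14.2% of all. CCAAT, searched without capitals here, was in 48 of 57 clustered promoters but in 3 of 12 clustered H4 promoters, and in 37.9% of all. In the Hist1h2ae window both marked motifs read on the strand opposite to the gene. Whether neighbouring genes share a window, and so a match, was not examined. The matches say which letters are present in these windows and nothing about the factors that bind there or the gene they serve.

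The neutrophil gate, at shallow median depths of 2281.5 and 2849.5 UMIs, had clustered core genes at 461 CPM (407 to 519) in WT and 385 CPM (281 to 515) in the CD40 KO-labelled library. Its summed macrophage markers were 435 and 581 CPM. Hist1h2bc stood at 249 and 205 CPM there and Hist1h1c at 280 and 120 CPM, while Hist1h1b, Hist1h3c and Hist1h3e had 0 UMIs in both libraries. A count of 0 there allows a level of up to 5.12 CPM in WT and 25.6 CPM in the other (3 UMIs of the total). Hist1h4i stood at 108 and 85.5 CPM. The members that led there against the macrophage gate were Hist1h4h (10 UMIs, 17.1 CPM) and Hist1h2be (22 UMIs, 37.5 CPM) in WT, and Hist1h2be (4 UMIs) and Hist1h4i in the CD40 KO-labelled library. Mki67 stood at 8.53 and 0 CPM in these gates.

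The fibroblast gate, with 110 and 54 barcodes and all 8 of its markers present, had the most distinct members. H2afy2, which encodes macroH2A2, stood at 30.4 and 16.2 CPM against 0.547 and 0.428 CPM in the macrophage gate. H1fx (H1.10) stood at 34.5 and 27.4 CPM against 1.34 and 2.65 CPM. These 2 genes led in both libraries. H3f3b was at 1460 and 1549 CPM, below 3775 and 4470 CPM in the macrophage gate, and H3f3a at 865 and 655 CPM. The linker gene H1f0 stood at 56.8 and 62.5 CPM. Linker genes as a whole stood at 209 and 216 CPM (log2 ratio between the libraries 0.05, −0.14 to 0.23) and clustered core genes at 205 and 237 CPM (0.21, 0.03 to 0.38). Whether these ratios differ from those of the macrophage gate was not tested. The fibroblast gate of WT also held more Mki67, 93.4 against 20.1 CPM. The part of this in the comparison was not tested.

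The endothelial gate had 179 barcodes in WT and only 10 in the CD40 KO-labelled library. In WT it stood at 341 CPM for clustered core and 260 CPM for linker genes, with H1f0 at 101 CPM (86.5 to 118) against 28.6 CPM in the macrophage gate. H2afy2, at 11.9 CPM, and Hist1h3c, at 12.5 CPM, led in WT. In the other library the highest ratios were those of Hist1h2bc (16 UMIs, 120 CPM) and H2afv (9 UMIs, 67.6 CPM), with log2 ratios of 0.04 (−0.76 to 0.74) and −0.21 (−1.34 to 0.72). These do not differ from the macrophage gate beyond counting error.

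Dendritic-gated barcodes (222 and 181) had clustered core genes at 216 and 396 CPM and linker genes at 189 and 333 CPM, both above the macrophage gates. Their leading members were Hist1h1b at 25.1 CPM and Hist1h2ae at 14.3 CPM in WT, and H2afz at 1684 CPM and Hist1h2ab at 12.7 CPM in the CD40 KO-labelled library. H2afz stood at 1892 CPM in the WT dendritic gate, so it was high in both. H2afy stood at 382 and 330 CPM, against 207 and 199 CPM in the macrophage gate. The sums differed between the libraries in the macrophage direction. By sign alone, 46 of 57 clustered core genes and 7 of 8 linker genes were higher in the CD40 KO-labelled library, with no share over all genes computed. The dendritic gate also passes macrophage markers, at a summed 5031 and 3458 CPM.

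The lymphocyte gates were small, with 40 and 11 T and NK barcodes and 30 and 11 B barcodes. In T and NK barcodes clustered linker genes stood at 361 CPM (285 to 450) and 391 CPM (293 to 511), the highest of the gated types in both libraries, though the intervals overlap those of the B gate in both libraries and that of the neutrophil gate in WT. Hist1h1e led there in WT at 74.0 CPM (16 UMIs) with Hist1h1d at 23.1 CPM (5 UMIs). In the CD40 KO-labelled library Hist2h4 and Hist1h2af led on 2 and 4 UMIs. The small T and NK gate of that library also held macrophage markers at 1210 CPM, against 204 CPM in WT. In B barcodes Hist1h1c stood at 211 and 262 CPM. Hist1h1e at 55.6 CPM and Hist1h1c led in WT, and Hist1h1a and Hist1h3f, with 2 UMIs each, in the other library. Among 6 macrophage states, which overlap and are ranges of marker counts rather than types, clustered core genes stood between 109 and 147 CPM in WT and between 234 and 334 CPM in the CD40 KO-labelled library. The lowest in WT was the Met and F13a1 state and the highest the resident-like one.

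**Figure D5:**
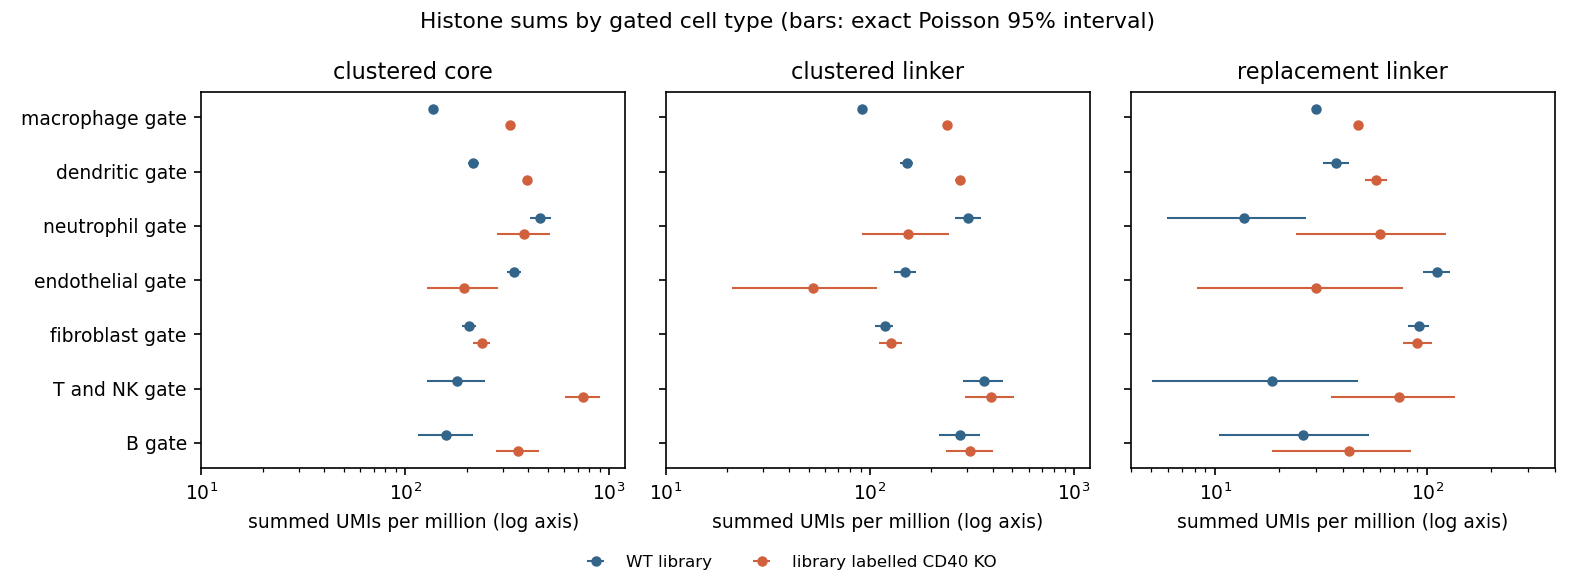
CPM of histone classes by gated cell type and library on a log axis, with exact 95% Poisson intervals. The neutrophil gate has clustered core genes at 461 CPM in WT against 385 CPM in the CD40 KO-labelled library; the macrophage gate has 138 and 326 CPM.

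Genes that make, carry and exchange histones were read from 4 lists. The list of transcription and 3′ processing of replication-dependent histone genes held 14 genes, 12 of them at 10 CPM. Between the libraries none was 1.5-fold higher and 1 was lower, with a median log2 ratio of 0.05: Lsm10, a subunit of the U7 particle that cuts histone messages, at 46.9 CPM in WT against 31.1 CPM in the CD40 KO-labelled library (−0.59, −0.67 to −0.51). Snrpd3 had −0.17, and the highest were Npat, the activator of histone gene transcription, at 10.8 and 15.9 CPM (0.55, 0.42 to 0.69) and Eri1, an exonuclease that acts on the stem-loop, at 0.34. In cycling barcodes 2 of 12 in WT and 5 of 12 in the other library were 1.5-fold higher, where 6.89% and 14.8% of all genes were, and none was lower. Slbp stood at 67.8 against 41.8 CPM in WT (0.70) and Casp8ap2 at 26.0 against 14.6 CPM (0.83), with Lsm10 at 0.06 and Sympk at 0.04. In the CD40 KO-labelled library Cstf2 (1.17) and Cpsf2 (0.67) were highest and Upf1 (0.18) and Lsm10 (−0.11) lowest. Cstf2 stood at 7.58 CPM in non-cycling barcodes there, so that it was higher was fixed by the floor.

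Of 26 measured genes 14 were at least 1.5-fold higher in cycling barcodes of WT, and 18 of 27 in the CD40 KO-labelled library, with none lower, in the list of histone chaperones and assembly factors. Over all genes 6.89% and 14.8% were higher and 2.46% and 5.41% lower. Genes such as Asf1b passed the floor only through the cycling group. Asf1b, which hands H3 and H4 to the assembly factor CAF-1, stood at 31.5 against 1.49 CPM and 30.04 against 1.88 CPM (4.403 and 3.998). Chaf1a, the large subunit of CAF-1, had 3.63 and 3.77. Daxx, a chaperone of H3.3, had −0.09 and −0.31, Ubn2 −0.10 in WT and Ubn1, a subunit of the HIRA complex for H3.3, −0.34 in the other library. Between the libraries 0 of 24 were higher and 1 lower, Anp32a at 127 and 60.8 CPM (−1.06, −1.12 to −1.01). Ubn1 had −0.20, and the highest were Rbbp7 and Hjurp at 0.39 each. The median of the list was 0.03.

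The H2A.Z exchange list had 9 genes, all measured. None passed 1.5-fold between the libraries. Ruvbl2 at 0.53 and Srcap at 0.50 were highest, Yeats4 at −0.38 and Ruvbl1 at −0.27 lowest. In cycling barcodes 1 of 9 in WT and 3 of 9 in the CD40 KO-labelled library were higher, where 6.89% and 14.8% of all genes were, with Ruvbl2 at 0.81 and 0.91, Actl6a at 0.48 and 0.95, Ino80 at −0.10 and −0.06 and Znhit1 at −0.10 and −0.07. Ruvbl2 stood at 7.88 and 9.76 CPM in non-cycling barcodes, so that it was higher was fixed by the floor. H2afz itself was higher in cycling barcodes by 1.44 and 1.31.

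Of 8 other architectural proteins 2 were at least 1.5-fold higher in the CD40 KO-labelled library, where 8.31% of all genes were. Hmgb2 stood at 184 CPM in WT against 409 CPM in the CD40 KO-labelled library (1.15, 1.13 to 1.18) and Hmga1 at 11.4 and 19.3 CPM (0.76, 0.63 to 0.88). Hmgn1 at 0.34 and Hmgb1 at 0.15 were lowest. In cycling barcodes 7 of 8 were at least 1.5-fold higher in each library, where 6.89% (WT) and 14.8% (CD40 KO-labelled) of all genes were. Cbx5, heterochromatin protein 1 alpha, led with 2.60 and 2.77, followed by Cenpa, the centromeric H3 variant, at 2.05 in WT and Hmgn1 at 1.86 in the other library. Cbx5 stood at 6.53 and 6.55 CPM in non-cycling barcodes, so that it was higher was fixed by the floor. Lowest were Hmgb1 (1.26) and Hmga1 (−0.24) in WT, and Hmgb2 (1.26) and Hmga1 (−0.07) in the CD40 KO-labelled library.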

How the data were processed

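Droplet libraries (2, 3′ v3 chemistry) were analysed. Per the file headers, Cell Ranger 7.0.1 made the deposited matrices, whose values are raw counts of UMIs. STAR and mm10 are also named by the submitters' processing notes. Whether introns were counted is not stated in any source used here. Filters kept barcodes of 1000 UMIs and 500 genes or more with no more than 10% mitochondrial UMIs. Scrublet's own threshold marked 0 barcodes, so the 903 (WT) and 531 highest scores were removed, at 0.8% per 1000 barcodes. Both libraries were clustered together without histone genes (scanpy 1.11.5, 2000 variable genes, 30 components, 15 neighbours, Leiden resolution 0.6), only to set apart a cluster with at least 95% of its barcodes from 1 library. The lowest depth of a barcode in the matrices was 500 UMIs (WT) and 1618 UMIs (CD40 KO-labelled).

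Cell types were gated on the number of markers present: at least 5 macrophage, 3 dendritic, 4 endothelial, 6 fibroblast, 3 T and NK, 3 B, or 4 neutrophil markers with at most 2 macrophage ones. Gate minimums were set after marker counts, not histone counts, had been seen. In WT 224 and in the other library 107 macrophage-gated barcodes were exactly at the minimum, 176 and 77 were 1 marker short, and 1512 and 860 lay between the cycling and non-cycling limits. UMIs were summed per gate and library and scaled to CPM. Levels have exact Poisson, ratios exact conditional and shares exact Clopper-Pearson intervals, all for counting error only. Members were counted at a mean of 10 CPM and 1.5-fold. Members with at least 10 CPM in macrophage-gated or cycling barcodes, type leaders (the 2 highest against the macrophage gate), and the 2 highest and 2 lowest of each list were named. The members and lists were chosen with earlier results of these data known. Scripts were checked on simulated counts. Python 3.11.15, numpy 2.4.6, scipy 1.17.1 and pandas 2.3.3 were used.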

Additional observations from a re-analysis of the deposited data

Results flagged for a closer look

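In 5 cases a member differed between the libraries in 1 direction in the macrophage gate and in the other direction in another gate, each by at least 1.5-fold and with both counting intervals away from 0. The difference between gates was not tested, since each group had 1 library. Hist1h1b was lower in the fibroblast gate of the CD40 KO-labelled library, with 43 UMIs against 153 in WT (log2 ratio −0.98, −1.51 to −0.49), and higher in the macrophage gate (0.94). Hist1h3c was lower there as well, with 4 UMIs against 23 (−1.68, −3.67 to −0.13), and higher in the macrophage gate (1.55). Mki67 stood at 20.1 CPM in the fibroblast gate of the CD40 KO-labelled library and 93.4 CPM in that of WT. Hist1h1c was lower in the neutrophil gate, at 120 CPM (14 UMIs) against 280 CPM (164 UMIs) in WT (−1.23, −2.13 to −0.44), and in the T and NK gate, at 133 against 236 CPM (−0.83, −1.69 to −0.03), while it was higher in the macrophage gate (1.46). H1f0 was lower in the endothelial gate, with 4 UMIs in 10 barcodes against 170 UMIs in 179 barcodes in WT (−1.75, −3.64 to −0.37), and higher in the macrophage gate (0.63). The part of the small gates and of dividing cells in these values was not tested.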

How the results depend on the processing

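Over 12 processing alternatives and 3 added after seeing the data, the class sums between the libraries and in cycling barcodes kept their sign, except the linker sum in cycling barcodes of the CD40 KO-labelled library. Of 720 values of the 24 named members, 716 kept their sign. The other 4 were H2afz between the libraries (median-of-ratios scaling and thinning) and, in the G2M gate of WT, H3f3a (2 more markers) and H1f0 (thinning). The 3 class log2 ratios between the libraries in the macrophage gate (linker 1.23, clustered core 1.24, replacement core 0.10) were 1.14, 1.15 and 0.011 with median-of-ratios scaling, 1.38, 1.38 and 0.12 with each barcode weighted equally, and 1.40, 1.30 and 0.12 after thinning. Without barcodes holding neutrophil transcripts they were 1.30, 1.36 and 0.13. With the one-library cluster kept, the clustered core was 1.32 and the replacement core 0.17; without doublet removal the replacement core was 0.12. Clustered core members with little shared sequence gave 1.10. The count of 9 higher members became 37 with a floor of 1 CPM and 5 with a fold of 2. For cycling over non-cycling barcodes in WT, linker (0.86), clustered core (1.38) and replacement core (0.24) were 0.79, 1.29 and 0.22 without doublet removal, 0.94, 1.61 and 0.23 with equal weights, 1.01, 1.71 and 0.23 after thinning, 0.76, 1.28 and 0.21 with 1 marker fewer, 1.02, 1.57 and 0.31 with 2 more, and 0.93, 1.61 and 0.26 without neutrophil transcripts. Median-of-ratios scaling gave 0.23 for the replacement core, little shared sequence 1.14 for the clustered core, and a floor of 1 CPM 34 higher members in place of 9. In the CD40 KO-labelled library, linker (0.01), clustered core (1.26) and replacement core (−0.06) were −0.0615, 1.19 and −0.13 with median-of-ratios scaling, −0.0862, 1.20 and −0.0475 with equal weights, −0.053, 1.12 and −0.0841 with 1 marker fewer, and 0.12, 1.47 and −0.0104 with 2 more. That linker sum was also below 0 with the stricter filter on barcodes (−0.0312) and without doublet removal (−0.0181). The clustered core was also 1.14 without doublet removal, 1.32 without barcodes high in Gm26917, Lars2 and Cmss1, 1.33 without neutrophil transcripts and 0.90 with little shared sequence. The replacement core was −0.0443 after thinning. A floor of 1 CPM gave 44 higher members in place of 12. The causes of these shifts were not tested, except that a lower floor admits more members. No paired analysis was possible because each group has 1 library. Depth limits the small gates most, where single UMIs decide a value.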
